A study of Homo sapiens with 6 samples.

Results

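Interleukin 6 and its relatives are secreted cytokines that share the signalling receptor chain gp130, encoded by IL6ST. A ligand-specific chain (IL6R for interleukin 6, LIFR for leukaemia inhibitory factor, OSMR for oncostatin M) joins gp130 in the receptor complex. The assembled complex activates JAK kinases such as JAK1, which phosphorylate the transcription factor STAT3, and STAT3 induces SOCS3, an inhibitor that binds gp130 and JAK and closes the loop. In melanoma this axis is known for autocrine cytokine production and for a change from growth inhibition in early lesions to cytokine resistance in advanced ones.

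The axis was followed as 10 genes taken by symbol, IL6, IL11, LIF, IL6ST, IL6R, LIFR, OSMR, JAK1, STAT3 and SOCS3. All of them had a row in the table of 18539 genes, and all passed the filter on low values. Every listed gene had about 1 estimated read or more in each library, so a gene without reads in even 1 library has no row. Shares of all genes tested and the search for genes like IL6 therefore leave out any message lost completely in shMMP9. The 10 genes were chosen with the difference between the groups already known, IL6 being among the genes that differed most. Their values are therefore a description, and no p-value is given for them.

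A375, the cell line used, derives from a human melanoma with mutant, active BRAF and was grown in DMEM with fetal bovine serum. Every culture had been infected with a lentiviral short hairpin vector and selected with puromycin, and the control group carried a control hairpin (shControl, 3 libraries) while the other carried a hairpin against the coding region of MMP9 (shMMP9, 3 libraries). MMP9 is a secreted matrix metalloproteinase that the title of the series links to cutting of histone H3 tails. A single MMP9 hairpin was used and the labels do not tell whether the libraries of a group stem from separate cultures, so the tests measure the spread between these libraries, which may be technical. MMP9 itself had scaled counts of 26.1, 24.3 and 28.7 in the shControl libraries, against 16.2, 14.6 and 17.1 with the MMP9 hairpin (replicates 1, 2 and 3 each, the order used throughout), so message remained in the depleted cells.

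The libraries held 21854075 to 28005449 estimated reads on listed genes. Reads of mitochondrially encoded genes made up 1.64 to 1.79% in shControl and 0.617 to 0.708% in shMMP9. Of 10 melanocytic and neural crest markers 8 were listed, without TYR and DCT, and their summed level ran from 586 to 605 CPM (counts per 1000000 reads) in shControl and from 1548 to 1634 in shMMP9, led by SOX10. Of 8 leukocyte markers 4 were listed, PTPRC, CD3E and ITGAM not among them, and these summed to 129 to 151 and 114 to 117 CPM, nearly all of it CD68. All 8 fibroblast markers were listed and summed to 36.5 to 37.2 and 14.7 to 16.2 CPM. The 4 listed of 8 keratinocyte markers summed to 80.1 to 94.9 and 154 to 163 CPM, and the 6 listed of 8 endothelial markers to 62.5 to 71.4 and 25.5 to 29.7 CPM. The lower endothelial sum came from TIE1 (means of 55.2 and 5.26 CPM), while KDR (7.12 and 18.5) and PECAM1 (1.31 and 2.36) stood higher in shMMP9, so that list did not differ in 1 direction. Other lists were mixed as well. MITF (39.2 and 31.9 CPM) stood lower while the melanocytic sum was higher, and PDGFRA (2.39 and 6.29) stood higher while the fibroblast sum was lower. Among the leukocyte markers LYZ (2.43 and 7.87) stood higher and CD68 (134 and 106) lower. The part of these shifts in the results below was not tested. In bulk RNA a change in every cell and a change in the share of cells that make a message cannot be told apart.

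The promoters of IL6 and IL11, the cytokine genes that were lower by 2-fold or more, are shown because factors known to act on such sites are among the pathway genes below. RefSeq on GRCh38.p14 gave 14 start windows for 9 of the 10 genes. Of each window the 250 bases before the start were searched on both strands for NF-kB (by name), C/EBP (TTGCNNAA), CRE half-sites (TGACG), AP-1 (TGANTCA), STAT (TTCNNNGAA) and TEAD (GGAATG) letters, and for the full CRE (TGACGTCA), which contains the half-site and matched in no member. The stretch shown for IL6 is chr7:22726950-22727146 on the plus strand. It lies in an intron of the longest IL6 transcript of GENCODE release 29, which starts further upstream, and stops before the next IL6 exon, at which other IL6 transcripts start. That of IL11 is chr19:55370464-55370713 on the minus strand. Capitals mark NF-kB, C/EBP, CRE half-site and AP-1 matches, 5′ to 3′.
IL6: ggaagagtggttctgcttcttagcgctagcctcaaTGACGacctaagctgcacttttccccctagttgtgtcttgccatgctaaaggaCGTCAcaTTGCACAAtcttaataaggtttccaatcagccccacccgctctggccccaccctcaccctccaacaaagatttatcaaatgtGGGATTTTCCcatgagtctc
IL11: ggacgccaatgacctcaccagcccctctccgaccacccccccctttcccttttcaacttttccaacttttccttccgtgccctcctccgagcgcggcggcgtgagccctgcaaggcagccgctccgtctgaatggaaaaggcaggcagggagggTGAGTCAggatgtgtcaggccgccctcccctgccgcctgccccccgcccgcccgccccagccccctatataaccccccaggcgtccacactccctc

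The IL6 stretch held an NF-kB match 73 to 64 bases before the RefSeq start, a C/EBP match 155 to 148 bases before it and CRE half-sites on each strand, 1 at 215 to 211 and 1 at 162 to 158 bases before it. Among all 35116 start windows, 9.96% held an NF-kB match, 9.05% a C/EBP match and 21.2% a CRE half-site. These letters were not particular to IL6 among the members, as IL6ST also held an NF-kB match, LIFR and OSMR a C/EBP match, and STAT3 and JAK1 a CRE half-site. The IL11 stretch held an AP-1 match 96 to 90 bases before its start, a match found in 6.57% of all windows. STAT letters, also present in 6.57% of windows, occurred in 2 of the 3 LIFR windows, and TEAD letters, present in 11.9%, in 1 window each of LIFR, SOCS3 and JAK1. The starts of those SOCS3 and JAK1 windows, and of the JAK1 window with the CRE half-site, lie outside the genes as GENCODE places them. These starts are therefore uncertain. A match describes letters only and does not show that a factor binds there.

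Levels below are scaled counts, that is, gene counts brought to a common upper quartile by the authors. Differences are those of log2(scaled count + 1), shMMP9 minus shControl, with their standard error (SE) from limma, on a scale that understates the change of weakly expressed genes. Over all 17194 genes tested, 57.5% were called at an adjusted p under 0.05 (25% higher and 32.5% lower in shMMP9). The excess of lower calls depends on the scaling: 4304 were higher and 5584 lower, but 4949 and 4946 after scaling by median ratios and 4988 and 4898 after scaling by total reads. Of the 10 genes of the axis 4 were called higher and 5 lower, and the groups did not overlap for these 9. Groups without overlap made up 62.7% of all genes tested, 27.6% with shMMP9 higher and 35.1% with it lower. Past 2-fold on this scale as well were 1 higher and 2 lower members, beside 3.22% and 4.96% of all genes tested. Because the genes were chosen on this contrast, nothing is read from their count. Their median difference was -0.07, against -0.05 over all genes tested.

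**Figure D1:**
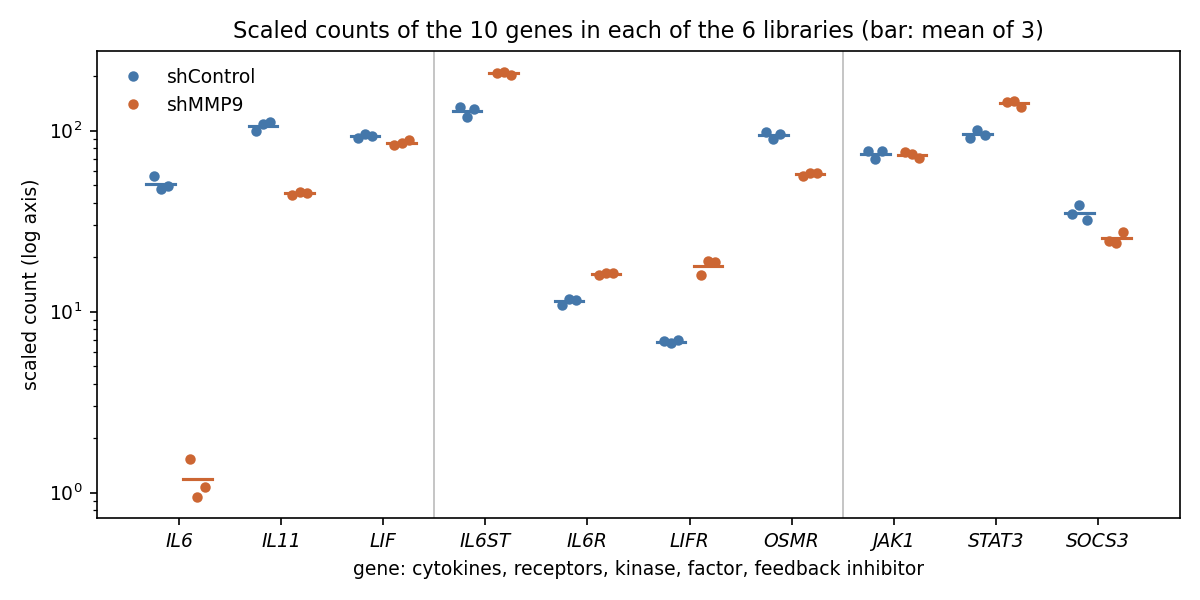
Scaled count (log axis) of each of the 10 genes in the 3 shControl and 3 shMMP9 libraries, with 1 point per library and a bar at the mean. The shMMP9 points of IL6 lie between 0.952 and 1.54, below all other points, while those of JAK1 lie among the shControl points.

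The cytokine genes were lower in shMMP9 by very unequal amounts. IL6, the founding cytokine of the family (ENSG00000136244.11, chromosome 7, 22725884 to 22732002, plus strand, GRCh38), stood at 56.1, 47.5 and 49.7 in shControl and at 1.54, 0.952 and 1.07 in shMMP9. The shMMP9 values rested on 46, 24 and 29 estimated reads, against 1573, 1461 and 1331 in shControl, so the level of what remained is known only coarsely. The ratio of means was 42.9-fold, and the log2 difference was -4.58 (SE 0.116), larger in size than that of 99.97% of genes tested. With a pseudocount of 4 the log2 difference was -3.41 and with limma-voom -5.41. On the opposite strand an antisense RNA, AC073072.1, shares 428 exon bases with IL6 and stood at means of 0.278 and 0.0591. STEAP1B shares 46 exon bases with IL6, also on the opposite strand, and stood at 12.8 and 11.998, above what was left of IL6 in shMMP9. Since the strand setting is not given in the sources used here, reads from the shared bases cannot be told apart, those among the few IL6 reads of shMMP9 included.

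IL11, a cytokine that signals through IL11RA and gp130 (ENSG00000095752.6, chromosome 19, 55364389 to 55370463, minus strand), stood at 99.6, 108 and 111 in shControl and at 44.4, 45.8 and 45.2 in shMMP9. Each shMMP9 library was below each shControl library, with a 2.36-fold ratio of means and a log2 difference of -1.22 (SE 0.0548).

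LIF, the cytokine that binds LIFR and gp130 (ENSG00000128342.4, chromosome 22, 30240447 to 30246851, minus strand), hardly differed. It stood at 91.6, 95.8 and 93.9 in shControl and at 82.9, 85.3 and 88.4 in shMMP9. The groups did not overlap, but the log2 difference was only -0.13 (SE 0.0487), and 25.8% of genes tested had a smaller one. It was -0.08 after scaling by median ratios and -0.07 after scaling by total reads, and of 14 alternatives 8 left LIF without a call. The LIF promoter is not shown.

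The ranking of the cytokines by read density was therefore not the same in the groups. Per kilobase of exon and per 1000000 reads, IL6 had 25.2 to 30.3 and LIF 25.8 to 26.5 in shControl, ranges that overlap, with IL11 above both at 41.7 to 46.0. In shMMP9 LIF led with 24.0 to 25.7, IL11 followed with 19.1 to 19.8, and IL6 had 0.531 to 0.859. Within a library the LIF density was 0.852, 1.05 and 0.985 times that of IL6 in shControl and 27.97, 46.7 and 43.0 times that of IL6 in shMMP9. Over the longest transcript IL6 had 34.2 to 41.0 and LIF 25.8 to 26.5 in shControl, so whether these ranges overlap depends on the length used. The LIF density was then 0.629, 0.776 and 0.727 times that of IL6 in shControl and 20.6, 34.5 and 31.7 times in shMMP9.

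**Figure D2:**
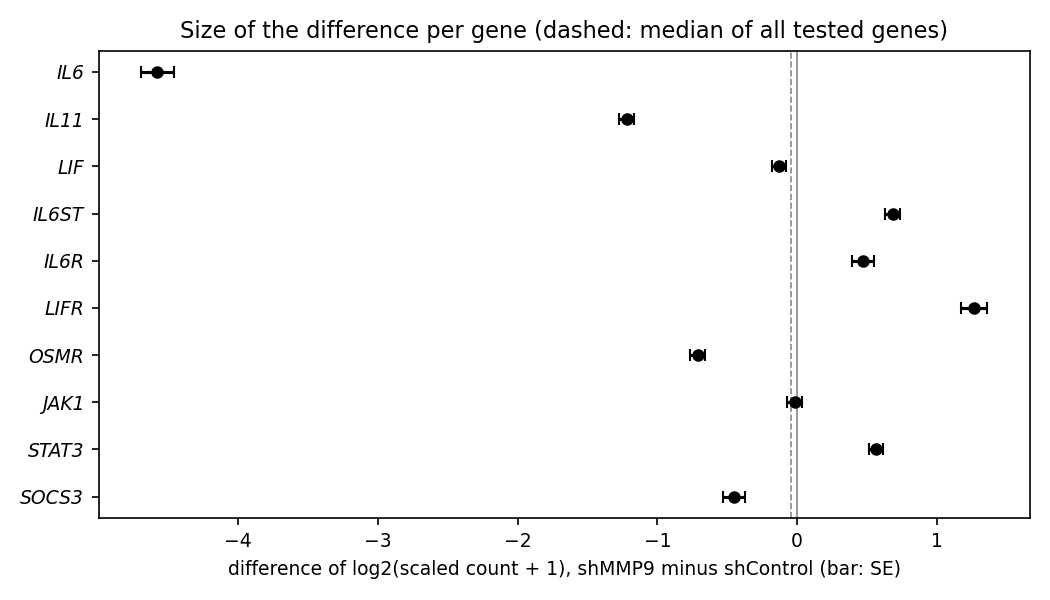
Difference of log2(scaled count + 1), shMMP9 minus shControl, for each of the 10 genes, with its SE and a dashed line at the median of all tested genes (-0.05). IL6 at -4.58 lies far to the left of the other 9, which run from -1.22 (IL11) to 1.27 (LIFR).

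The receptor chains differed in opposite directions. IL6ST, the shared chain gp130 (ENSG00000134352.19, chromosome 5, 55935095 to 55994993, minus strand), stood at 136, 119.8 and 132 in shControl and at 209, 211 and 203 in shMMP9. All shMMP9 libraries were higher, with a log2 difference of 0.68 (SE 0.0529). IL6R, the chain that binds interleukin 6 (ENSG00000160712.12, chromosome 1, 154405193 to 154469450, plus strand), stood at 10.9, 11.7 and 11.6 in shControl and at 15.8, 16.5 and 16.3 in shMMP9. The difference was 0.47 (SE 0.0808), again without overlap, at a level well below that of gp130.

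LIFR, the chain for LIF that also takes part in oncostatin M and ciliary neurotrophic factor complexes (ENSG00000113594.9, chromosome 5, 38474963 to 38608354, minus strand), was the member with the largest excess in shMMP9. It stood at 6.88, 6.69 and 6.94 in shControl and at 16.0, 18.95 and 18.8 in shMMP9. The ratio of means was 2.62-fold and the log2 difference 1.27 (SE 0.0945). LIFR-AS1, an antisense RNA sharing 629 exon bases, stood at 0.485 and 1.09, and without a stated strand setting the reads of the pair cannot be told apart.

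OSMR, the chain that pairs with gp130 for oncostatin M (ENSG00000145623.12, chromosome 5, 38845858 to 38945596, plus strand), was lower in shMMP9. It stood at 98.96, 90.5 and 95.7 in shControl and at 56.3, 58.2 and 58.3 in shMMP9. The groups did not overlap, with a 1.65-fold ratio of means and a log2 difference of -0.71 (SE 0.0518). RICTOR exons on the opposite strand overlap OSMR by 229 bases, and RICTOR stood at 38.5 and 42.2.

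LIFR and OSMR are neighbours in the genome, 237504 bases apart, and differed in opposite directions. OSMR-AS1, which lies 29 bases from OSMR, was not called (difference -0.17, SE 0.160, adjusted p = 0.375, limma). It stood at means of only 0.613 in shControl and 0.440 in shMMP9, too low for this scale to show more than a large change. IL31RA, a receptor chain of the same family, lies 12242 bases from IL6ST. It went from 7.21 ± 0.487 to 4.51 ± 0.232 (SD, n = 3), a difference of -0.58 (SE 0.109, adjusted p = 0.000515, limma), whereas gp130 beside it stood higher in shMMP9.

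Read density per length was used to compare the messages of the receptor chains with each other, and receptor protein was not measured. The OSMR density was 23.8, 22.4 and 22.8 times that of LIFR in shControl replicates 1 to 3 and 5.81, 5.08 and 5.13 times in shMMP9. The gp130 density was 1.06, 1.02 and 1.06 times that of OSMR in shControl and 2.86, 2.80 and 2.69 times in shMMP9. Taken over the longest transcript in place of merged exons these ratios to OSMR averaged 0.830 and 2.21, so which chain was the more abundant in shControl depends on the length used, while the groups stayed apart. The gp130 density was 7.09 to 8.63 times that of IL6R in shControl and 8.65 to 9.14 times in shMMP9.

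Of the intracellular genes, JAK1 hardly differed, STAT3 was higher and SOCS3 lower. JAK1, the kinase bound to gp130 (ENSG00000162434.11, chromosome 1, 64833229 to 64966504, minus strand), stood at 77.2, 69.5 and 76.9 in shControl and at 76.1, 73.9 and 70.7 in shMMP9. Its groups overlapped, and the difference was -0.02 (SE 0.0564), smaller than that of all but 3.46% of genes tested. STAT3 (ENSG00000168610.14, chromosome 17, 42313324 to 42388568, minus strand) stood at 91.3, 101 and 94.3 in shControl and at 143, 145 and 136 in shMMP9. It was higher in each shMMP9 library, with a difference of 0.56 (SE 0.0521).

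SOCS3, the feedback inhibitor induced by STAT3 (ENSG00000184557.4, chromosome 17, 78356778 to 78360077, minus strand), was lower in shMMP9 although the STAT3 message was higher. It stood at 34.5, 38.6 and 32.2 in shControl and at 24.7, 23.9 and 27.6 in shMMP9, a difference of -0.45 (SE 0.0796) without overlap. The density of STAT3 was 0.807 to 0.909 times that of SOCS3 in shControl and 1.52 to 1.89 times in shMMP9. Over the longest transcript it was 1.41 to 1.59 and 2.66 to 3.30 times, so which of the pair was denser in shControl depends on the length used. Phosphorylated STAT3, which sets its activity, is not measured by RNA.

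**Figure D3:**
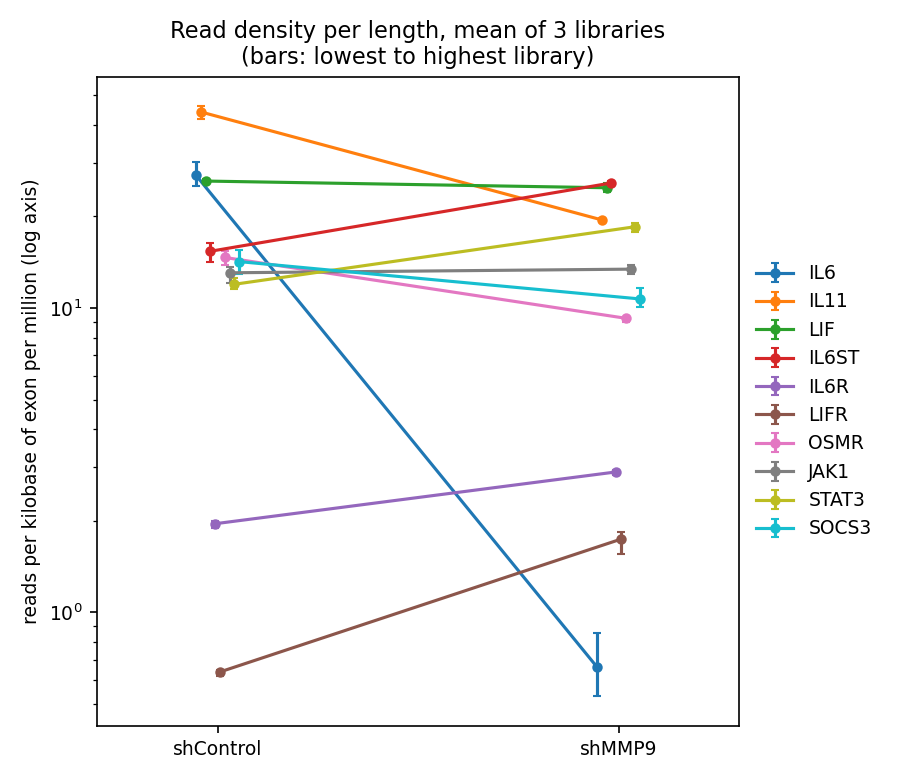
Reads per kilobase of merged exons per 1000000 reads (log axis) for the 10 genes, as the mean of 3 libraries with bars from the lowest to the highest library, in shControl and shMMP9. IL6 has the next-highest mean after IL11 in shControl (27.3) and the lowest in shMMP9 (0.662), where IL6ST has the highest (25.8).

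Ordered by read density, shControl cells had IL11 first at 44.1, then IL6 at 27.3 and LIF at 26.1. IL6ST, OSMR, SOCS3, JAK1 and STAT3 followed between 15.4 and 11.97, each overlapping its neighbour, and IL6R at 1.96 and LIFR at 0.638 came last, apart from the others and from each other. In shMMP9 the order was IL6ST (25.8), LIF (24.8), IL11 (19.5), STAT3 (18.5), JAK1 (13.4), SOCS3 (10.7), OSMR (9.25), IL6R (2.89), LIFR (1.74) and IL6 (0.662). There only IL6ST and LIF overlapped as neighbours. The place of STAT3 depends on its length, since over the longest transcript its mean density was 20.9 in shControl and 32.3, the highest of the 10, in shMMP9.

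The genes whose profile over the 6 libraries was most like that of IL6 were found among 11257 others with a mean of 5 or more CPM. They were TMPRSS15, KRT81, SPANXB1, CCL3 and SH3GL2, with root mean square differences of 0.203, 0.208, 0.212, 0.239 and 0.244 on the log2 scale. As the libraries form only the shControl and shMMP9 groups, this likeness is mainly a group difference of similar size. The log2 differences ran from -4.68 (KRT81) to -4.14 (CCL3), against -4.58 for IL6. CCL3, the only cytokine gene among them, rested on 6 to 9 estimated reads per shMMP9 library and SH3GL2 on 2 to 4. Mean scaled counts went from 21.2 to 0.254 for CCL3 and from 19.5 to 0.109 for SH3GL2, against 51.1 to 1.19 for IL6. At such low levels the pseudocount shrinks the log2 difference, so likeness on this scale does not mean a like ratio of means. KRT81 and SPANXB1 have near-identical relatives, so their reads are uncertain.

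The rest of the pathway was read from 8 lists holding 131 genes outside the 10, of which 116 were in the table and 115 were tested. At an adjusted p under 0.05 (limma) 39 of these rose, 50 fell and 26 did not pass, so 77.4% were called beside 57.5% of all genes tested. The lists were chosen with earlier results of these data known, so nothing is read from that excess. The median difference was -0.10, beside -0.05 over all genes. The lists share 6 genes, FOS, FOSL2, CEBPB and TNFRSF1A among them, which count in each list that holds them.

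**Figure D4:**
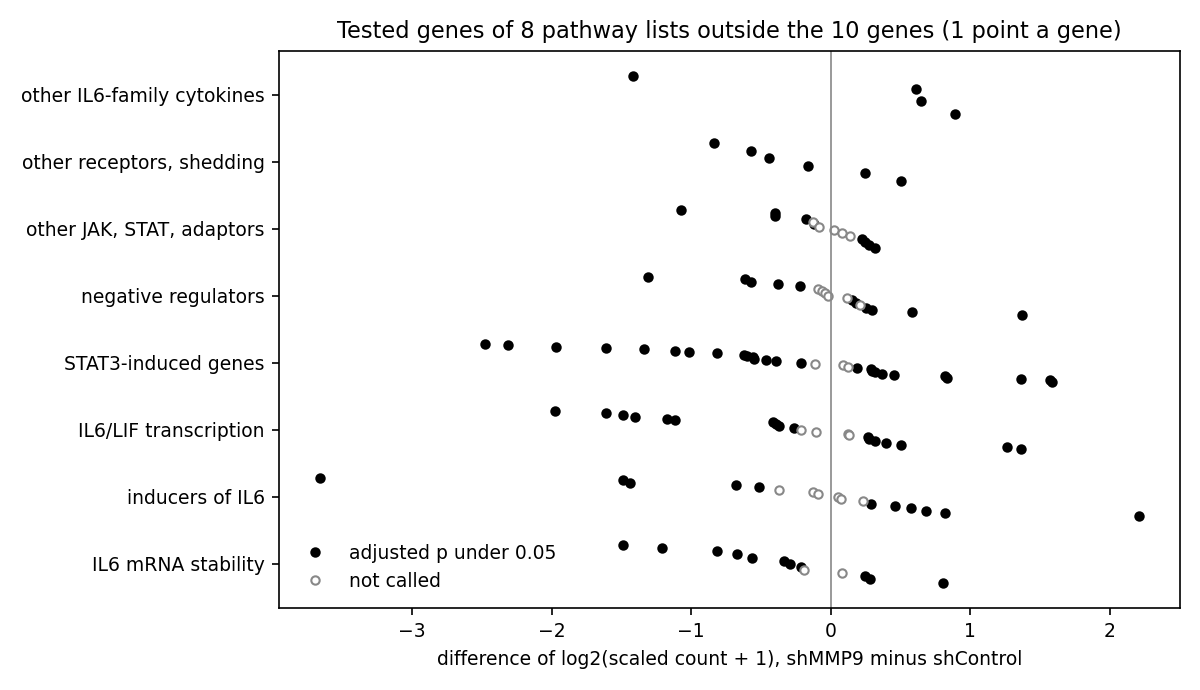
Difference of log2(scaled count + 1), shMMP9 minus shControl, of each tested gene in the 8 lists, with filled points for genes called at an adjusted p under 0.05 and open points for the others. Every list has points on both sides of 0, and the extremes are IL1B at -3.66 and TLR4 at 2.21.

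Among the other cytokines of the family 3 of 4 tested genes rose and 1 fell. CNTF, ciliary neurotrophic factor, rose from 1.03 ± 0.364 to 2.73 ± 0.248 (SD, n = 3; difference 0.89, SE 0.147, adjusted p = 0.000171, limma). CLCF1, a ligand of the ciliary neurotrophic factor receptor, rose by 0.65. EBI3, a subunit of interleukin 27, fell from 8.98 ± 0.772 to 2.72 ± 0.2003 (difference -1.42, adjusted p = 2.24e-07, limma). OSM, CTF1, IL27 and IL31 had no row and were not analysed here. A missing row does not show that a gene was silent in both groups.

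Of 6 other receptors and receptor-shedding proteases 2 rose and 4 fell. IL11RA, the ligand-specific chain for interleukin 11, fell from 4.82 ± 0.532 to 3.26 ± 0.0687 (difference -0.45, adjusted p = 0.0057, limma), so both it and its ligand gene stood lower in shMMP9. SORL1, a sorting receptor, fell by 0.84 at low levels, from 1.75 ± 0.373 to 0.527 ± 0.0977. ADAM10, a protease that sheds membrane receptors including IL6R, rose by 0.50. ADAM17, the other such protease of the list, fell by 0.16 (adjusted p = 0.0125, limma), and was added after its value was seen. IL27RA rose by 0.24, a call lost in 1 of 14 alternatives, without shMMP9 replicate 2 (adjusted p = 0.0535, limma).

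Of 14 other JAK kinases, STAT factors and adaptors 4 rose, 5 fell and 5 did not pass. JAK2 did not pass (9.56 ± 0.68 and 10.6 ± 1.12, adjusted p = 0.282, limma). TYK2, the other kinase of these receptors, fell by 0.12 (adjusted p = 0.043, limma), a call that ended in 8 of 14 alternatives. STAT5B fell by 0.40, whereas STAT6 rose by 0.28, each a smaller difference than that of STAT3. GAB2, a docking adaptor, had the largest difference of the list and fell from 29.2 ± 1.38 to 13.3 ± 0.62 (difference -1.07, adjusted p = 4.90e-08, limma). SHC1, an adaptor to RAS, fell by 0.40, and GAB1 rose by 0.32, a call lost in 4 of 14 alternatives. Leaving out shControl replicate 2 or shMMP9 replicate 2 brought the number that rose from 4 to 2.

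Of 17 negative regulators 6 rose, 5 fell and 6 did not pass, and SOCS family members differed in direction. SOCS5, an inhibitor of growth factor receptor signalling, rose from 18.9 ± 1.75 to 50.6 ± 1.65 (difference 1.37, SE 0.0729, adjusted p = 3.36e-09, limma), and SOCS2 rose by 0.58. CISH, an inhibitor induced by STAT5, fell from 4.02 ± 0.144 to 1.03 ± 0.253 (difference -1.31, adjusted p = 1.70e-06, limma). SOCS1, the closest relative of SOCS3 in function, was at 0.458 ± 0.236 and 0.381 ± 0.0719 and did not pass (adjusted p = 0.714, limma). The phosphatase gene PTPN2 fell by 0.57, from 28.9 ± 2.09 to 19.1 ± 1.996. PTPN6, another phosphatase gene, fell by 0.61 at lower levels, from 1.47 ± 0.229 to 0.613 ± 0.0696.

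Genes known to be induced through STAT3 did not move one way. Of 29 tested, 11 rose, 15 fell and 3 did not pass, with a median difference of -0.21. The acute-phase genes SAA1 and SAA2 fell from 7.91 ± 0.977 to 0.612 ± 0.289 and from 6.80 ± 1.47 to 0.550 ± 0.0399, and as they are nearly identical the share of each is uncertain. CD274, which encodes the checkpoint ligand PD-L1, fell from 18.95 ± 1.20 to 4.11 ± 0.581 (difference -1.97, SE 0.109, adjusted p = 5.21e-09, limma). A2M, an acute-phase protease inhibitor, rose from 34.1 ± 2.45 to 104 ± 1.69 (difference 1.59, SE 0.0591, adjusted p = 9.51e-11, limma).

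Of 21 regulators of IL6 and LIF transcription 7 rose, 10 fell and 4 did not pass. The AP-1 subunit gene JUN fell from 109 ± 6.02 to 27.0 ± 3.64 (difference -1.98, SE 0.0808, adjusted p = 2.35e-10, limma), FOSL2 by 1.61 and FOSL1 by 1.40, while FOS rose by 1.36 from a low level of 2.73 ± 0.509. Genes at higher levels rose as well, WWTR1 from 224 ± 6.40 to 539 ± 3.61 (difference 1.26), YAP1 by 0.50, JUNB by 0.32 and NFKB1 by 0.27. NFKBIZ, an atypical NF-kB cofactor needed for IL6 induction, fell by 1.49. RELA, the main activating NF-kB subunit, stood at 123 ± 4.19 and 114 ± 9.91 and did not pass (adjusted p = 0.148, limma), and CEBPB, first described as a factor for IL6, fell by 0.39.

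Of 17 cytokines and receptors that induce IL6, 6 rose, 5 fell and 6 did not pass. IL1B, a strong inducer of IL6, fell by 3.66 (SE 0.0681, adjusted p = 3.38e-13, limma), IL1A by 1.49 and IL18 by 1.44. The receptor genes of the list were mixed. TLR4, the endotoxin receptor, rose from 33.3 ± 1.85 to 157 ± 5.75 (difference 2.21, SE 0.0556, adjusted p = 3.14e-12, limma), and TNFRSF1A, the main TNF receptor, rose by 0.82. IL1RAP and IL17RA rose by 0.58 and 0.29. TGFBR2 fell by 0.52, and IL1R1 fell by 0.68 at low levels, from 2.62 ± 0.268 to 1.25 ± 0.0923. TGFBR1 and TLR3 did not pass.

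Of 13 regulators of IL6 mRNA stability 3 rose, 8 fell and 2 did not pass. ZC3H12A, whose product Regnase-1 cleaves IL6 mRNA, fell from 35.7 ± 1.23 to 12.1 ± 0.371 (difference -1.49, SE 0.0699, adjusted p = 9.43e-10, limma). ARID5A, which stabilises IL6 mRNA, rose from 3.77 ± 0.722 to 7.27 ± 0.765 (difference 0.80, adjusted p = 0.000179, limma). ZFP36L1, which promotes decay of AU-rich messages, fell by 0.82, and the RNA-binding protein genes LIN28B and IGF2BP1 fell by 1.21 and 0.67.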

How the data were processed

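RNA of 6 A375 libraries (3 shControl, 3 shMMP9) was compared, with groups and replicate numbers from the labels. The tools named, per the submitters' processing notes, are STAR 2.6.1d and Partek, and the build is hg38. How genes were counted, with which annotation and strand setting, is not given in the sources used here. Deposited values are on a log2 scale and were read as log2(scaled count + 1), since on the linear scale the 75th percentiles agree (45.3 to 45.4) and 63.2 to 67.4% of values are whole multiples of 1 read within 0.01 reads. The remaining values are fractions, so no count model was used. Reads were estimated from those steps. The lowest value of each library was about 1 read, so no gene without reads in a library is listed.

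limma 3.58.1 (R 4.3.3), with a variance trend, was fitted to the deposited log2 values of the 17194 genes that reached 10 reads (at median depth) in at least 3 libraries and 15 over all. P-values were adjusted over all of them by Benjamini-Hochberg. On simulated data for shMMP9 against shControl (17194 genes, 200 changed, dispersion 0.01) it recovered 85.1% of 1.5-fold and 100% of 2-fold changes, with 7 false calls. The changed genes were drawn only among those with higher mean scaled counts, and the dispersion was set rather than estimated. Recovery for weakly expressed genes was therefore not measured. Far fewer genes were changed than were called in the data, evenly up and down, and the scaling of each simulated library was known. The false calls therefore do not measure errors that come from scaling.

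The members and lists were chosen with earlier results of these data known. Named were all members, MMP9 and the 5 genes most like IL6. From each list up to 5 called genes without overlap and with the largest difference were named, plus 9 forced genes. Neighbours on chromosome 5 were added after their values were seen, as were further receptors that induce IL6 and further regulators of IL6 transcription. Some genes that the rule names are not reported here. Lengths and coordinates come from GENCODE release 29 (GRCh38), promoters from RefSeq (GRCh38.p14). Alternatives were a replicate block, each library left out, 2 scalings, no filter, 2 pseudocounts, limma-voom and no variance trend. Figures used matplotlib 3.10.9.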

Additional observations from a re-analysis of the deposited data

How the results depend on the processing

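Of the 10 genes of the axis, 9 kept the sign of their difference in all 14 alternatives, and JAK1, which was not called, kept it in 9. The 4 higher calls held throughout, and the number of lower calls was 4 or 5 depending on LIF. The log2 difference of IL6 was -5.17 (pseudocount 0.25), -3.41 (pseudocount 4) and -5.41 with limma-voom on estimated reads, and ran from -4.69 to -4.50 when 1 library was left out. Over all genes, those changed 2-fold or more numbered 553 higher and 852 lower, against 844 and 1407 (pseudocount 0.25), 321 and 425 (pseudocount 4), and 1047 and 1682 with limma-voom. With lengths of the longest transcript 4 members changed rank by density in shControl and 6 in shMMP9. SOCS1, which was not called, ran from -0.21 to 0.015 when 1 library was left out, the lowest without shControl replicate 3 and the positive value without shControl replicate 2. Of 630 values of 45 genes outside the axis that the rule names, 615 kept their direction and their side of the threshold. The replicate numbers showed no clear pairing of the libraries. Deviations of same-numbered libraries correlated at 0.11, -0.24 and 0.01, and those of differently numbered ones at -0.26 to 0.32. Deviations from a mean of 3 libraries are tied to each other, so this check cannot settle whether the libraries are paired. With the replicate number as a block 4211 genes were higher and 5486 lower, against 4304 and 5584 without it. They numbered 4949 and 4946 with median-ratio scaling and 4988 and 4898 with total-read scaling. Depth limits the level of IL6 in shMMP9, which rests on 24 to 46 reads, and of other genes at scaled counts near 1.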
